A study of Mus musculus with 9 samples.

Results

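The 10 genes described here encode intermediate filament proteins of nerve cells and glia: Nefl, Nefm, Nefh, Ina, Prph, Gfap, Vim, Nes, Synm and Sync. They were chosen by name from 24170 genes, and their mRNA was measured in purified primary mouse cultures of 3 cell types. The cell types were dorsal root ganglion (DRG) neurons, oligodendrocyte progenitor cells (OPC) and astrocytes, with 3 biological replicate libraries each. DRG neurons, the sensory neurons that lie beside the spinal cord, were taken from embryos at E13.5 (embryonic day) and kept about 2 weeks in culture. OPC, the dividing cells from which myelinating oligodendrocytes arise, were purified from cortex at postnatal day 6 to 9 and kept 6 to 7 days in culture. Astrocytes came from cortex at postnatal day 1 to 3 and grew for about 21 days to confluence. OPC and astrocyte donors were of either sex, and the labels name no strain, genotype or treatment for any group. Donor age and time in culture differed between all 3 cell types, and tissue of origin differed between DRG neurons and both glial types, so cell type cannot be told apart from them.

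Intermediate filaments are the rope-like part of the cytoskeleton, built from coiled-coil proteins that pair and then assemble side by side. Neurons build them from the light, medium and heavy neurofilament proteins, together with alpha-internexin and peripherin, and the neurofilaments set the calibre of large axons. Astrocytes build theirs from glial fibrillary acidic protein and vimentin, while nestin and vimentin are known for their place in dividing neural progenitors. Synemin and syncoilin do not form filaments of their own and join those of other proteins.

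The neurofilament trio Nefl, Nefm and Nefh made up 95.1 to 97.2% of the summed CPM per kb (level per length of the bases that could be counted) of the 9 listed genes with counts in DRG neurons. Prph, a filament gene of sensory neurons, could not be counted and is in no such share. Vim made up 83.7 to 88.9% of that sum in OPC and 67.6 to 72.6% in astrocytes, where Gfap added 18.9 to 26.7%. Gfap counts were divided by 2896 bases, those found in only 1 of its 2 transcripts. Most of its counts came from 1 transcript, with 1472 such bases. The Gfap share is therefore too low in astrocytes, and that of Vim there too high. Of the 10 genes, 9 passed the filter on low counts and were tested, and Prph had no counts in any library. In DRG neurons against astrocytes, 5 of the 9 were higher and 3 lower. Of all 14848 genes tested there, 27.4% were called higher and 32.8% lower, 60.2% in all. In DRG neurons against OPC, 6 of the 9 were higher and 2 lower, beside 28.4% and 31.1% of all genes, 59.5% in all. In OPC against astrocytes, 1 was higher and 5 lower, beside 26.3% and 25.5% of all genes, 51.8% in all. A gene was called where the adjusted p of edgeR's quasi-likelihood F-test, corrected by Benjamini-Hochberg over all genes tested, fell under 0.05. The median log2 fold change over the 9 genes was 3.34 in DRG neurons over astrocytes, 5.05 in DRG neurons over OPC and −1.52 in OPC over astrocytes, beside −0.13, −0.08 and 0.09 over all genes. Each of the 9-gene medians is the value of 1 gene, Synm in both DRG comparisons and Nes in OPC over astrocytes. The 9 genes went in both directions, so these medians describe no shift common to them.

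**Figure D1:**
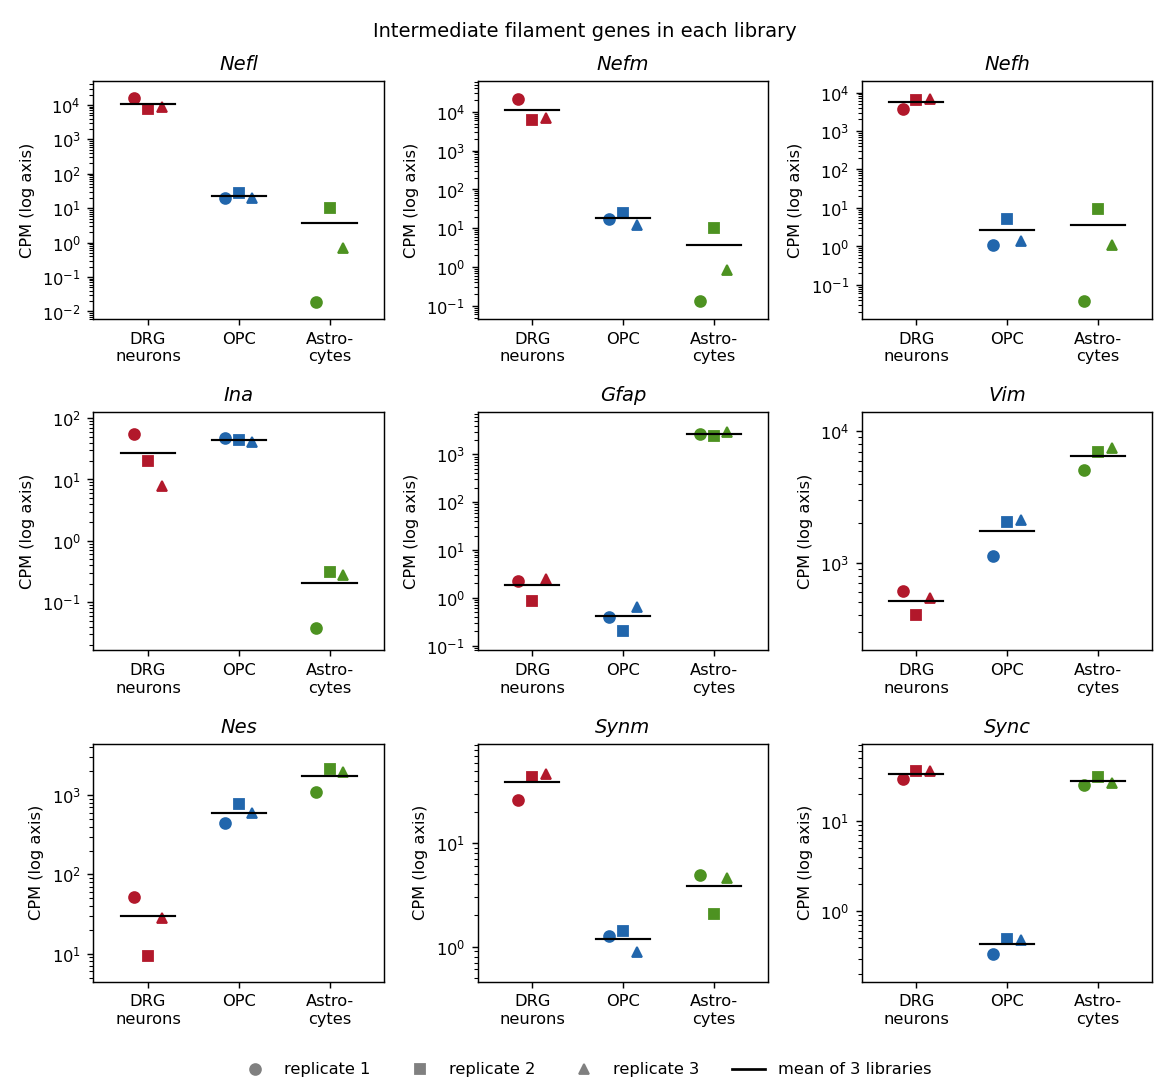
Level of the 9 intermediate filament genes with counts, in CPM (counts per 1000000 assigned counts, log axis, its own scale for each gene), in each library of DRG neurons, OPC and astrocytes. Marker shape gives the replicate and the line the mean of 3 libraries. Nefl, Nefm and Nefh reach 3683 CPM or more in all DRG libraries and Gfap reaches 2392 CPM or more in all astrocyte libraries. The astrocyte points of the neurofilament genes spread over 76.8-fold or more.

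Levels are given in CPM, the counts per 1000000 assigned counts after scaling of library sizes with TMM factors. The libraries held 30710093 to 53594210 assigned counts, which were made per RefSeq transcript, so a gene with several transcripts is measured only by reads found in 1 of them. Sensory neuron markers summed to 6846 to 7001 CPM in DRG neurons, 9.81 to 17.5 CPM in OPC and 3.72 to 14.3 CPM in astrocytes. OPC markers summed to 22.7 to 38.5 CPM in DRG neurons, 7183 to 10778 CPM in OPC and 1480 to 2423 CPM in astrocytes. In astrocytes most of the OPC marker sum came from Ptprz1 (1139, 1166 and 1112 CPM) and Olig1 (223, 977 and 1004 CPM). Astrocyte markers summed to 1231 to 1435 CPM in DRG neurons, 1023 to 1259 CPM in OPC and 4381 to 5982 CPM in astrocytes. Of these 10 genes, 8, 5 and 7 reached 1 CPM in the DRG libraries, 9, 7 and 8 in the OPC libraries and 10 in each astrocyte library. In DRG neurons nearly all of the astrocyte marker sum came from Aldoc (641, 786 and 291 CPM) and S100b (563, 639 and 922 CPM). In OPC most of it came from Slc1a3 (631, 923 and 827 CPM). Among the libraries of 1 cell type, some stood apart in ways that touch the results below. DRG replicate 1 held 19.1 CPM of the sodium channel gene Scn10a, against 110 and 148 CPM in replicates 2 and 3. OPC replicate 1 held 786 CPM of Gpr17, a gene of committed oligodendrocyte precursors, against 9.44 and 9.84 CPM. Astrocytes replicate 1 held 2480 CPM of microglia genes and 213 CPM of cell cycle genes, against 429 and 394 CPM and 2287 and 1433 CPM in replicates 2 and 3.

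Nefl, the light subunit without which neurofilaments do not assemble, and Nefm, the medium subunit, are neighbours on mouse chromosome 14 on opposite strands, at chr14:68083863-68089095 on the plus strand and chr14:68119545-68125004 on the minus strand (GRCm38, whole gene). Nefl had 15666, 7381 and 8487 CPM in DRG neurons, 19.7, 27.3 and 20.1 CPM in OPC, and 0.0188, 10.5 and 0.719 CPM in astrocytes. Nefm had 21369, 5996 and 6876 CPM in DRG neurons, 17.4, 24.9 and 12.2 CPM in OPC, and 0.132, 10.1 and 0.857 CPM in astrocytes. Neither gene's DRG libraries overlapped those of any glial library, and DRG replicate 1 held the most of both. In DRG neurons over astrocytes the log2 fold change was 11.46 for Nefl (SE 1.78, calculated back from the test statistic, adjusted p = 0.000522, edgeR, n = 3 each). That of Nefm was 11.59 (SE 1.69, adjusted p = 0.000365). Over OPC the 2 genes were higher by 8.88 (SE 1.62, adjusted p = 0.00126) and 9.29 (SE 1.55, adjusted p = 0.000773). In bulk cultures, fewer cells of a type and less RNA per cell cannot be told apart.

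Nefh, the heavy subunit with a long tail of repeated phosphorylation sites (chr11:4938754-4948064, minus strand), had 3683, 6380 and 6785 CPM in DRG neurons. OPC libraries held 1.12, 5.31 and 1.40 CPM, and astrocyte libraries 0.0376, 9.66 and 1.11 CPM. Here DRG replicate 1 was the lowest of its group, opposite to its place for Nefl and Nefm. DRG neurons exceeded astrocytes by a log2 fold change of 10.61 (SE 1.73, adjusted p = 0.000672, edgeR) and OPC by 11.06 (SE 1.76, adjusted p = 0.000571).

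The astrocyte libraries set much of the size of these folds. Without Astrocytes replicate 2, the log2 fold changes of DRG neurons over astrocytes were 14.91 for Nefl, 14.56 for Nefm and 13.34 for Nefh. Without Astrocytes replicate 1 they were 10.86 for Nefl and 10.01 for Nefh. Without DRG replicate 1 the Nefm value was 10.77 over astrocytes and 8.47 over OPC, and without OPC replicate 2 the Nefh value over OPC was 12.11. All of these passed the test.

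The proportions of the 3 subunits differed between DRG libraries. Divided by transcript length, Nefm stood to Nefl as 1.38, 0.824 and 0.821 in DRG replicates 1 to 3, and Nefh stood to Nefl as 0.199, 0.732 and 0.677. Replicate 1 therefore held more Nefm and less Nefh for its Nefl than the other two, which were close to each other. The share of Nefl in the summed CPM per kb of the 9 genes was nearly the same in the 3 libraries, at 37.6, 37.4 and 38.1%, while Nefm took 52.1, 30.8 and 31.3% and Nefh 7.49, 27.4 and 25.8%. The same library had the least Scn10a, as given above, and also the least Isl1, a transcription factor of sensory neurons, with 96.7 CPM against 222 and 270 CPM. Whether these values are related was not tested.

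**Figure D2:**
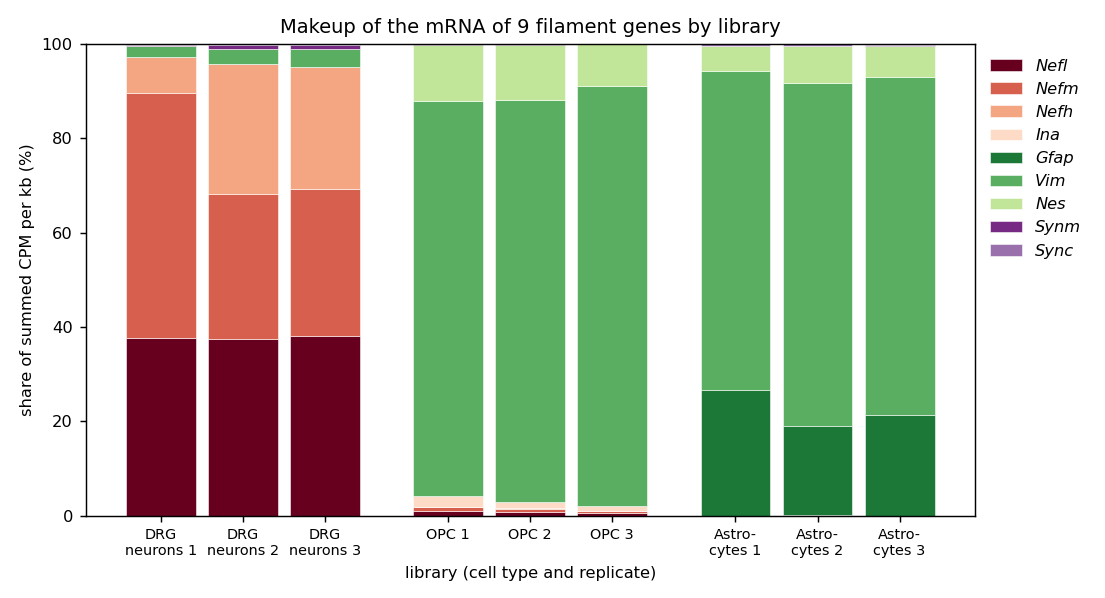
Share of each gene (%) in the summed CPM per kb of 9 intermediate filament genes, one bar per library, for DRG neurons, OPC and astrocytes (Prph could not be counted and is left out). Neurofilament genes fill 95.1 to 97.2% of the DRG bars, with a larger Nefm and smaller Nefh segment in DRG replicate 1. Vim fills 83.7 to 88.9% of the OPC bars, and Vim and Gfap fill most of the astrocyte bars. Gfap was divided by the bases of both its transcripts, so its astrocyte segments are too small and those of Vim too large.

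In the glial libraries the neurofilament genes stayed at or under 0.260% of their DRG mean. By their medians, replicate 2 held the most of both the trio and the sensory neuron genes in OPC and in astrocytes. As a percentage of the mean of the 3 DRG libraries, the median of Nefl, Nefm and Nefh was 0.153, 0.218 and 0.107% in OPC and 0.00067, 0.0996 and 0.00751% in astrocytes. The median of 9 sensory neuron genes was 0.0405, 0.134 and 0.0784% in OPC and 0.00542, 0.176 and 0.0282% in astrocytes. In Astrocytes replicate 2 the 9 sensory neuron genes ran from 0.0962 to 3.07% of their DRG mean, beside Nefl at 0.0996%, Nefm at 0.0886% and Nefh at 0.172%. Not every sensory neuron gene was highest there. Trpv1 stood at 1.72, 0.660 and 3.29% in the astrocyte libraries and Calca at 0.352, 3.07 and 4.53%. In OPC, Nefl stood at 0.188 to 0.260% of its DRG mean, Nefm at 0.107 to 0.218% and Nefh at 0.0199 to 0.0946%. Per length, Nefh stood to Nefl as 0.0480, 0.165 and 0.0587 in OPC, beside 0.199, 0.732 and 0.677 in DRG neurons. Nefm stood to Nefl as 0.895, 0.925 and 0.617 in OPC, beside 1.38, 0.824 and 0.821 in DRG neurons. Genes of neurons in general, 9 in the list, stood higher than the sensory neuron genes. Their median was 3.47 to 3.997% of the DRG mean in OPC and 0.751 to 1.47% in astrocytes. In OPC they ran from Stmn2, at 0.00577 to 0.0937%, to Elavl3, at 32.9 to 49.6%. The part of carried-over or mixed-in neuronal RNA, sensory or other, in the glial values was not tested.

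Between the 2 glial types, none of the trio passed. Nefl had a log2 fold change of 2.58 in OPC over astrocytes (SE 1.23, adjusted p = 0.108, edgeR), Nefm of 2.30 (SE 1.16, adjusted p = 0.124) and Nefh of −0.46 (SE 1.19, adjusted p = 0.773). The libraries of the 2 groups did not overlap for Nefl and Nefm and did for Nefh. Without Astrocytes replicate 2, Nefl reached 6.04 (adjusted p = 0.00152) and Nefm 5.28 (adjusted p = 0.00249), both past the threshold, and Nefh turned to 2.29 (adjusted p = 0.111). Without Astrocytes replicate 1, Nefl was 1.99 (adjusted p = 0.0828).

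**Figure D3:**
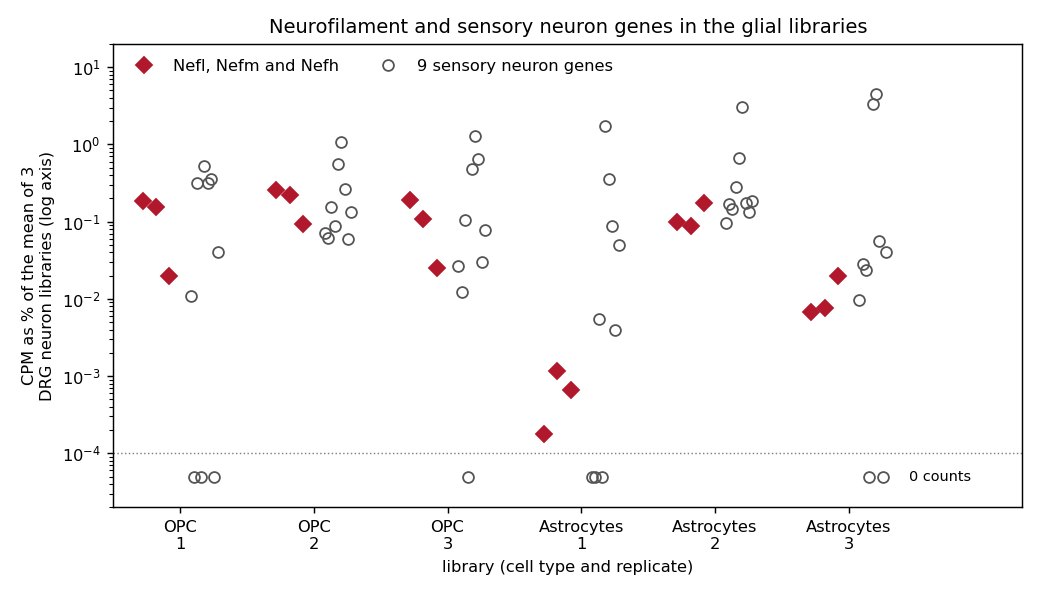
Level of Nefl, Nefm and Nefh (diamonds, left to right) and of 9 sensory neuron genes (circles) in each OPC and astrocyte library, as a percentage of the gene's mean in 3 DRG libraries (log axis, genes with 0 counts below the dotted line). Astrocytes replicate 2 holds the neurofilament genes at 0.0886 to 0.172%, above the other astrocyte libraries.

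Ina encodes alpha-internexin, a neuronal filament protein that appears early in development and joins the neurofilament subunits in central axons (chr19:47014681-47025327, plus strand). It departed from the trio. DRG libraries held 54.1, 20.2 and 7.87 CPM, OPC libraries 47.9, 44.4 and 40.4 CPM, and astrocyte libraries 0.0376, 0.309 and 0.276 CPM. The OPC libraries lay close together, within the wide range of the DRG libraries, and the astrocyte libraries lay far below both. OPC were higher than astrocytes by a log2 fold change of 7.77 (SE 0.92, adjusted p = 0.000189, edgeR), the single gene of the 10 called higher in that comparison, and DRG neurons were higher than astrocytes by 7.08 (SE 0.90, adjusted p = 0.000158). Between DRG neurons and OPC the log2 fold change was −0.69 (SE 0.66, adjusted p = 0.385). Without DRG replicate 1 it was −1.66 (adjusted p = 0.0501), and the value over astrocytes was 6.12. Per length, Ina stood to Nefl as 0.00361, 0.00285 and 0.000968 in DRG neurons and as 2.54, 1.70 and 2.09 in OPC. In OPC it was therefore the most abundant of the 4 neuronal filament genes with counts. Ina overlaps Nt5c2 on the other strand over 456 bases, and the strand setting of the counting was not given in the sources used here. Nt5c2 had 0.190 to 1.66 CPM of isoform-specific reads over the 9 libraries.

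Prph encodes peripherin, known as a filament protein of peripheral neurons, small sensory neurons among them (chr15:99053579-99058978, plus strand). It was listed at 0 counts in all 9 libraries. Its 3 RefSeq transcripts of 1862, 1757 and 1863 bases share all but 2, 0 and 0 of their bases, so a read from the shared bases fits more than 1 of them. The counting set aside 22.0 to 24.7% of all reads as ambiguous between transcripts. A count of 0 allows up to 0.0259 CPM of transcript-specific reads in DRG neurons, 0.0222 CPM in OPC and 0.0228 CPM in astrocytes (3 counts per group, for counting error only). The files therefore hold no measure of Prph itself in any cell type.

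Gfap, Vim and Nes, the filament genes of astrocytes and progenitors, all stood highest in astrocytes and passed the test as lower in DRG neurons and in OPC. Their promoters are shown because these genes moved together in both comparisons with astrocytes. In DRG neurons against OPC they did not, as Gfap was higher and Vim and Nes were lower. The promoter of Ina follows, a gene that moved the other way between OPC and astrocytes. RefSeq promoter entries (GRCm38.p6, 250 bases before and 50 after the start of transcription) matched 7 of the 10 genes, and Nefl, Nefm and Nefh had none. Capitals mark 3 promoter motifs, searched on both strands. One is the TATA box, with the letters TATAAA. Another is the CCAAT box, with the letters of its name, which reads ATTGG from the opposite strand. The third is the GC box, with the letters GGGCGG, which reads CCGCCC from the opposite strand.
The Gfap promoter lies at chr11:102897151-102897450 on the minus strand, that of Vim at chr2:13574061-13574360, that of Nes at chr3:87970843-87971142 and that of Ina at chr19:47014431-47014730, each on the plus strand.
Gfap: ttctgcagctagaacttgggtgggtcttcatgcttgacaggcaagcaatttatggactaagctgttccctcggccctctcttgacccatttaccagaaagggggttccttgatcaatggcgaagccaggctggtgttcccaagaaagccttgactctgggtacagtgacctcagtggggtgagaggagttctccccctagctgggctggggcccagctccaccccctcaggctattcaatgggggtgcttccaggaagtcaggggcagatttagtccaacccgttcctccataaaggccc
Vim: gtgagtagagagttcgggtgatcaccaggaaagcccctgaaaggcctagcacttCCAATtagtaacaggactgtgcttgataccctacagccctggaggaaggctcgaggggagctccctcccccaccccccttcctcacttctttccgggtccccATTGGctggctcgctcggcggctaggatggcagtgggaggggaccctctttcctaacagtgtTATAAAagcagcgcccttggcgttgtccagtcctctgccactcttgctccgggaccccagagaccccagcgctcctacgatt
Nes: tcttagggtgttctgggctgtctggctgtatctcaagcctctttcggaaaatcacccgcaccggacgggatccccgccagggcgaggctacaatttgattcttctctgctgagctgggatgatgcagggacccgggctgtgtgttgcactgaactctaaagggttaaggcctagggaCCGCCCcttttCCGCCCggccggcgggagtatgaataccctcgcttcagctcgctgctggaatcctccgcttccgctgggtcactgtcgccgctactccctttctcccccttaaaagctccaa
Ina: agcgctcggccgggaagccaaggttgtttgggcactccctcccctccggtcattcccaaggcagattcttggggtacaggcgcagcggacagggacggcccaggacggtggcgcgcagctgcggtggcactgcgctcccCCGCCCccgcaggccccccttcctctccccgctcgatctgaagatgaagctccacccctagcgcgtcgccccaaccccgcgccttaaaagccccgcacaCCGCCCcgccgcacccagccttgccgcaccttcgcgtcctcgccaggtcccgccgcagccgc
The Vim window held TATAAA at −32 and CCAAT at −196 and −94. Nes held GGGCGG at −73 and −62, Ina held it at −111 and −12, and these letters were not found in the Gfap window. Of the 32851 promoters of this length, 13.6% held TATAAA, 37.4% held CCAAT and 35.7% held GGGCGG. Among the 7 matched genes TATAAA occurred in 2 (Prph and Vim), CCAAT in 2 (Vim and Synm) and GGGCGG in 4 (Ina, Prph, Nes and Sync). Gfap, Vim and Nes, the 3 genes that moved together against astrocytes, shared none of the 3 motifs in this window.

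Gfap, the defining filament protein of astrocytes (chr11:102887336-102897200, minus strand), had 2.27, 0.842 and 2.50 CPM in DRG neurons, 0.402, 0.204 and 0.650 CPM in OPC, and 2658, 2392 and 2955 CPM in astrocytes. The 3 groups did not overlap, and astrocyte libraries differed by 1.24-fold at most. DRG neurons were lower than astrocytes by a log2 fold change of −10.49 (SE 0.61, adjusted p = 2.48e-06, edgeR), and OPC were lower by −12.65 (SE 0.66, adjusted p = 4.61e-06). Without OPC replicate 3, OPC against astrocytes reached −13.26. The small DRG level exceeded that of OPC by 2.16 (SE 0.48, adjusted p = 0.00386), and by 2.86 without OPC replicate 3. That contrast rests on 40 to 97 counts per DRG library and 10 to 27 per OPC library.

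Gfap has 2 RefSeq transcripts, of 2648 and 2600 bases, with 1472 and 1424 bases of their own, and each was counted by its own reads only. The longer, NM_010277, held most counts. The shorter, NM_001131020, made up 3.97% of Gfap counts in Astrocytes replicate 1 (exact Clopper-Pearson 95% interval 3.87 to 4.07), 8.05% in replicate 2 (7.89 to 8.22) and 5.95% in replicate 3 (5.81 to 6.10). These intervals cover counting error only, and they do not overlap, so the libraries of 1 cell type differed beyond counting error. Tested per transcript, both fell in DRG neurons against astrocytes, by −10.45 for the longer (SE 0.60, adjusted p = 2.18e-06, edgeR) and −11.27 for the shorter (SE 0.69, adjusted p = 2.84e-06). In DRG neurons over OPC, only the longer passed, at 2.30 (SE 0.48, adjusted p = 0.00277), while the shorter had 0.23 (SE 0.93, adjusted p = 0.849), from 7 counts in each group. Of the 10 filament transcripts tested, 9 were called in DRG neurons against astrocytes, 8 in DRG neurons against OPC and 7 in OPC against astrocytes, beside 60.0%, 59.1% and 50.9% of all 16010 transcripts.

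Vim encodes vimentin, a filament protein of astrocytes, progenitors and cells of mesenchymal origin (chr2:13574311-13582826, plus strand). DRG libraries held 608, 399 and 543 CPM, OPC libraries 1134, 2029 and 2111 CPM, and astrocyte libraries 5094, 6979 and 7535 CPM. The groups formed 3 steps without overlap, with DRG neurons at the bottom and astrocytes at the top. DRG neurons were lower than astrocytes by −3.66 (SE 0.33, adjusted p = 2.16e-05, edgeR) and lower than OPC by −1.77 (SE 0.30, adjusted p = 0.000899). OPC were lower than astrocytes by −1.89 (SE 0.30, adjusted p = 0.000922). Fibroblast and mural genes, 10 in the list, can also mark cells that hold vimentin. They summed to 548, 250 and 505 CPM in DRG neurons, 2.44, 2.32 and 2.86 CPM in OPC, and 1154, 8259 and 9749 CPM in astrocytes. At least 1 CPM was reached by 9 of the 10 in each DRG library, by 0 in OPC and by 4, 6 and 6 in astrocytes. In astrocytes most of the sum came from Acta2 (413, 4639 and 5998 CPM) and Tagln (727, 3292 and 3509 CPM). Of the 10, 4 were higher and 3 lower in DRG neurons against astrocytes, beside 27.4 and 32.8% of all genes. Against OPC, 10 were higher in DRG neurons, beside 28.4% of all genes. The part of fibroblast and mural cells in the Vim level was not tested.

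Nes encodes nestin, the large filament protein used as a marker of neural progenitors (chr3:87971093-87980451, plus strand). It followed the same steps. DRG libraries held 52.2, 9.33 and 27.9 CPM, OPC libraries 445, 772 and 590 CPM, and astrocyte libraries 1078, 2126 and 1966 CPM. No library of 1 group reached into another. DRG neurons were lower than astrocytes by −5.86 (SE 0.65, adjusted p = 7.52e-05, edgeR) and lower than OPC by −4.34 (SE 0.61, adjusted p = 0.000283). Without DRG replicate 1, the library with most Nes in its group, the values were −6.53 and −5.02. OPC were lower than astrocytes by −1.52 (SE 0.54, adjusted p = 0.0409). This last call did not hold without any 1 of DRG replicate 3 (adjusted p = 0.0573), OPC replicate 1 (0.121), 2 (0.0647) or 3 (0.0810), or Astrocytes replicate 2 (0.0970) or 3 (0.0955). Replicate 1 held the least Vim and Nes of both glial groups. Cell cycle genes summed to 20.2, 13.7 and 12.7 CPM in DRG neurons, 3528, 5362 and 1837 CPM in OPC, and 213, 2287 and 1433 CPM in astrocytes, and their part in the Nes level was not tested. Per length, Vim stood to Nes as 32.6, 120 and 54.4 in DRG neurons, 7.12, 7.34 and 9.99 in OPC, and 13.2, 9.17 and 10.7 in astrocytes.

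Synm encodes synemin, which links filaments of vimentin and desmin type to other structures (chr7:67730161-67759742, minus strand). DRG libraries held 26.3, 44.1 and 47.4 CPM, OPC libraries 1.25, 1.40 and 0.890 CPM, and astrocyte libraries 4.97, 2.07 and 4.62 CPM. The 3 groups did not overlap, and DRG neurons had the most. DRG neurons were higher than astrocytes by 3.34 (SE 0.41, adjusted p = 0.000135, edgeR) and higher than OPC by 5.05 (SE 0.45, adjusted p = 2.27e-05), and OPC were lower than astrocytes by −1.71 (SE 0.40, adjusted p = 0.00596). All Synm counts came from 1 of its 3 transcripts, NM_201639, of which 914 of 7818 bases lie in neither of the others. The values are therefore those of this transcript and not of the gene as a whole.

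Sync encodes syncoilin, known from muscle as a partner of desmin (chr4:129287256-129309383, plus strand), and it was the gene whose DRG and astrocyte levels lay closest. DRG libraries held 29.0, 35.7 and 35.6 CPM, OPC libraries 0.335, 0.488 and 0.481 CPM, and astrocyte libraries 25.3, 31.1 and 26.7 CPM. DRG neurons and astrocytes overlapped, and OPC lay far below both. DRG neurons were higher than OPC by 6.26 (SE 0.28, adjusted p = 1.52e-06, edgeR), and OPC were lower than astrocytes by −5.98 (SE 0.27, adjusted p = 3.46e-06). Between DRG neurons and astrocytes the log2 fold change was 0.27 (SE 0.22, adjusted p = 0.302). Sync overlaps Rbbp4 on the other strand over 518 bases. Rbbp4 had 161 to 189 CPM in DRG neurons, 661 to 834 CPM in OPC and 317 to 366 CPM in astrocytes, and was thus most abundant where Sync was lowest. Genes of muscle, 8 in the list, summed to 0.904 to 2.20 CPM in DRG neurons, 1.07 to 2.30 CPM in OPC and 1.69 to 6.72 CPM in astrocytes.

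**Figure D4:**
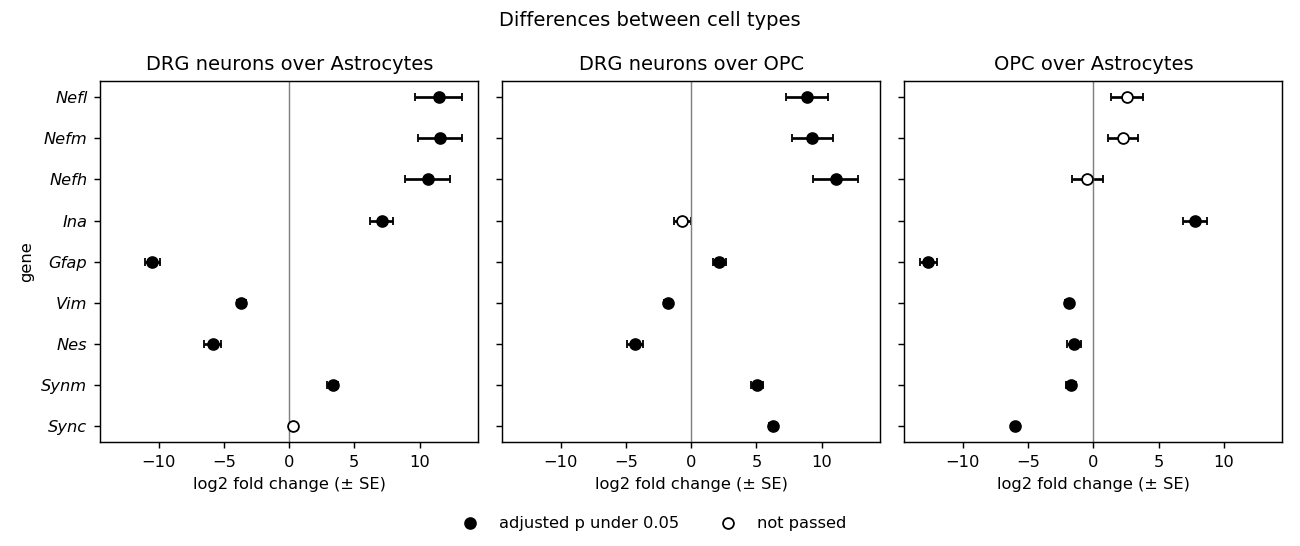
log2 fold change (point) and its SE (bar) of 9 intermediate filament genes in DRG neurons over astrocytes, DRG neurons over OPC and OPC over astrocytes. Filled points passed an adjusted p of 0.05 and open points did not. Nefl, Nefm and Nefh lie between 8.88 and 11.59 to the right in both DRG comparisons, and Gfap lies furthest to the left in DRG neurons over astrocytes (−10.49) and in OPC over astrocytes (−12.65).

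In all, the 9 listed genes with counts held 3.99, 1.80 and 2.01% of assigned counts in DRG neurons, 0.161, 0.303 and 0.282% in OPC, and 0.970, 1.26 and 1.35% in astrocytes. Prph could not be counted and is not part of these totals. Ordered by mean CPM per kb, DRG neurons ran Nefm, Nefl, Nefh, Vim, Synm, Sync, Ina, Nes and Gfap. The value of Gfap in these orders is too low, for the reason given with the shares. There Nefm and Nefl overlapped, as did Sync with Ina and Ina with Nes, so these neighbours cannot be ordered. OPC ran Vim, Nes, Ina, Nefl, Nefm, Synm, Nefh, Sync and Gfap, with overlap between Nefl and Nefm, Synm and Nefh, and Sync and Gfap. Astrocytes ran Vim, Gfap, Nes, Sync and Synm, followed by Nefm, Nefl, Nefh and Ina, and neighbours from Synm to Ina overlapped. The first 3 ranks were separate from each other and from the rest in OPC, and the first 4 in astrocytes. The range between libraries was widest for the neurofilament genes in astrocytes, where the highest exceeded the lowest by 557-fold for Nefl, 76.8-fold for Nefm and 257-fold for Nefh, on 1 to 441 counts per library.

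The genes most like each member across the 9 libraries were found by the root mean square difference in log2 CPM, centred on each gene's own mean. Nefl and Nefm were each other's nearest among 14848 genes, at 0.58. Snap25 was also among the 3 nearest to Nefl (1.62) and Pou4f1 among the 3 nearest to Nefm (1.28). The 3 nearest to Nefh included Slc17a6 (0.88) and Ndrg4 (0.99). Ina was nearest to Syt16 (0.54), Pak7 and Sorcs3, all of them with 3.85 to 87.3 CPM in DRG neurons and OPC and at most 0.774 CPM in astrocytes. Gfap was nearest to Akr1c14 (0.76), Slco1a4 and Col4a6. For Vim the nearest were Sun1 (0.21), Plekhh2 and Elk3, and for Nes they were Fat1 (0.40), Smo and Cx3cl1. Synm was nearest to Spata46 (0.33), Peli3 and Sh3bgrl2, and Sync to Cd34 (0.44), Fstl3 and Fgf1. The median over all genes ran from 1.70 for Vim to 5.99 for Nefl. These distances describe 9 libraries of 3 groups, and any gene with the same group means comes out near.

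Other genes of the filament system were read from lists by role. Transport motors, the kinesins, dynein and myosin parts that carry neurofilaments along axons, were higher in DRG neurons for 9 of 9 genes, against astrocytes and against OPC alike, where 27.4 and 28.4% of all genes were called higher. The alternatives tried called 8 to 9 of them. Kif5a, a neuronal kinesin heavy chain, had 1368, 1468 and 1378 CPM in DRG neurons, 26.5, 21.3 and 19.1 CPM in OPC, and 7.96, 5.82 and 5.81 CPM in astrocytes. Its log2 fold change was 7.75 in DRG neurons over astrocytes (SE 0.26, adjusted p = 3.61e-07, edgeR) and 1.77 in OPC over astrocytes (SE 0.20, adjusted p = 0.00015). Kif5c, of the same family, was higher in DRG neurons than in OPC by 5.51 (SE 0.34, adjusted p = 4.41e-06). Dync1i1, a dynein intermediate chain, rested on 1 count in astrocytes against 1417 in DRG neurons, a ratio of 1609 (exact 95% counting interval 288 to 63590), and it is counted by transcript-specific reads only.

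Chaperones of filament proteins were higher for 5 and lower for 2 of 8 genes in DRG neurons against astrocytes, and higher for 7 and lower for 1 against OPC. In OPC against astrocytes, 0 were higher and 6 lower. Of all genes, 60.2, 59.5 and 51.8% were called in these 3 comparisons. Hspb1, a small heat shock protein that acts on filament proteins, had 211, 145 and 182 CPM in DRG neurons, 0.0671, 0.163 and 0.0962 CPM in OPC, and 6.13, 36.6 and 30.2 CPM in astrocytes. It was higher in DRG neurons than in OPC by 10.63 (SE 0.83, adjusted p = 1.29e-05, edgeR). Hspb8 and its partner Bag3 were higher there by 7.54 (SE 0.32, adjusted p = 1.27e-06) and 7.27 (SE 0.39, adjusted p = 2.63e-06). Hspb8 was lower in OPC than in astrocytes by −8.84 (SE 0.33, adjusted p = 3.46e-06). Hspb8 had 334 to 387 CPM in DRG neurons, 1.63 to 2.31 CPM in OPC and 703 to 1214 CPM in astrocytes, and Bag3 had 549 to 593 CPM in DRG neurons, 2.12 to 4.72 CPM in OPC and 107 to 179 CPM in astrocytes. OPC held the least of all 3 chaperone genes, as of Sync.

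Kinases and activators that act on filament proteins were higher for 10 and lower for 4 of 16 genes in DRG neurons against astrocytes, higher for 6 and lower for 4 against OPC, and higher for 8 and lower for 2 in OPC against astrocytes. The background shares were 60.2, 59.5 and 51.8%, so the calls against OPC lay near the background. Without Astrocytes replicate 1, the 10 calls of OPC against astrocytes were 6. Cdk5r2, the p39 activator of the neuronal kinase Cdk5, which phosphorylates neurofilament tails, had 201, 312 and 297 CPM in DRG neurons, 11.6, 17.6 and 23.4 CPM in OPC, and 0.113, 0.546 and 0.304 CPM in astrocytes. It was higher than in astrocytes by 9.74 in DRG neurons (SE 0.59, adjusted p = 3.08e-06, edgeR) and by 5.79 in OPC (SE 0.52, adjusted p = 4.68e-05). Without Astrocytes replicate 2 these were 10.39 and 6.45. The mitotic kinases Aurkb and Cdk1, which phosphorylate vimentin at division, fell in DRG neurons against OPC by −8.12 (SE 0.95, adjusted p = 0.000103) and −7.78 (SE 0.76, adjusted p = 3.57e-05). Both are also cell cycle genes, whose sums stand beside Nes above.

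Turnover and modification genes, 12 of 14 tested, were higher for 7 and lower for 2 in DRG neurons against astrocytes, higher for 6 and lower for 1 against OPC, and higher for 1 and lower for 5 in OPC against astrocytes. With backgrounds of 60.2, 59.5 and 51.8%, the last 2 of these totals lay near the share over all genes. Uchl1, an abundant neuronal ubiquitin hydrolase, had 2613, 3566 and 4048 CPM in DRG neurons, 177, 214 and 227 CPM in OPC, and 280, 314 and 337 CPM in astrocytes, and was higher in DRG neurons than in OPC by 4.05 (SE 0.24, adjusted p = 3.63e-06, edgeR). Capn1, a calcium-activated protease that cuts neurofilaments, was higher in DRG neurons than in OPC by 7.11 (SE 0.77, adjusted p = 6.51e-05) and lower in OPC than in astrocytes by −5.20 (SE 0.73, adjusted p = 0.000438). The first of these was 7.70 without OPC replicate 3 and 6.03 from the most counted transcript alone. Padi2, a deiminase that modifies Gfap and vimentin, had 15.5, 2.59 and 1.27 CPM in DRG neurons, 13.8, 2.83 and 4.79 CPM in OPC, and 255, 113 and 204 CPM in astrocytes. Against astrocytes its log2 fold change in DRG neurons was −4.89 (SE 1.01, adjusted p = 0.00259), and −6.61 without DRG replicate 1.

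Of the lamins, the filament proteins of the nuclear envelope, Lmna was higher and Lmnb1 and Lmnb2 were lower in DRG neurons in both comparisons. Lmnb1 had 10.3, 8.38 and 6.71 CPM in DRG neurons, 598, 900 and 800 CPM in OPC, and 28.3, 186 and 123 CPM in astrocytes. Against OPC its log2 fold change was −6.50 in DRG neurons (SE 0.67, adjusted p = 5.11e-05, edgeR), beside −2.35 for Lmnb2 (SE 0.23, adjusted p = 3.48e-05) and 3.26 for Lmna (SE 0.30, adjusted p = 2.92e-05). In OPC against astrocytes Lmnb1 was higher by 2.77 (SE 0.56, adjusted p = 0.00319). Lmna, with 3 transcripts, is counted by transcript-specific reads only, and against astrocytes it passed narrowly (log2 fold change 0.73, adjusted p = 0.0453). The lamins called there were 2 to 3 over the alternatives tried.

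Cytolinkers, large proteins that tie filaments to other parts of the cell, were higher for 1 and lower for 3 of 7 genes in DRG neurons against astrocytes, higher for 4 and lower for 1 against OPC, and lower for 6 in OPC against astrocytes. Over all genes 60.2, 59.5 and 51.8% were called, and the 4 calls against astrocytes lay near that share. Macf1, which joins actin and microtubules, fell in DRG neurons against astrocytes by −7.23 (SE 0.56, adjusted p = 1.03e-05, edgeR), with 1.32, 1.07 and 1.76 CPM of transcript-specific reads in DRG neurons against 107, 270 and 248 CPM in astrocytes. Dsp, a desmosome protein, was higher in DRG neurons than in OPC by 6.84 (SE 1.09, adjusted p = 0.000596) and by 6.01 without DRG replicate 2. Ppl had 0 counts in OPC, so DRG neurons held at least 7.41-fold more than OPC (adjusted p = 0.0048, edgeR), and OPC at least 57.7-fold less than astrocytes (adjusted p = 0.00062), against a floor of 3 counts over the group.

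Of 16 other cytoplasmic filament genes, keratins for the most part, 7 were tested. In DRG neurons 2 were higher and 1 lower against astrocytes, and 3 were higher and 2 lower against OPC, and in OPC 2 were lower than in astrocytes, beside 60.2, 59.5 and 51.8% of all genes called. Leaving out 1 library moved the calls to between 3 and 6 in DRG neurons against astrocytes (6 without OPC replicate 1). In OPC against astrocytes they moved to 4 without any 1 DRG or OPC library and to 1 without Astrocytes replicate 3. Krt222, a keratin-like gene, had 37.3, 44.1 and 38.1 CPM in DRG neurons, 0.246, 0.468 and 0.144 CPM in OPC, and 0.414, 0.522 and 0.581 CPM in astrocytes, and was higher in DRG neurons than in OPC by 7.09 (SE 0.45, adjusted p = 5.13e-06, edgeR). Krt19 had 0 counts in OPC and at most 0.609 CPM elsewhere. DRG neurons held at least 21.1-fold more than OPC (adjusted p = 0.00124), and OPC at least 3.78-fold less than astrocytes (adjusted p = 0.0176). The call against astrocytes was lost with the replicate block (adjusted p = 0.0529) and without DRG replicate 1 and Astrocytes replicate 2 together (adjusted p = 0.0656). Bfsp2, a lens filament gene, passed as lower in DRG neurons against OPC (log2 fold change −5.45, SE 1.62, adjusted p = 0.0164), with 0.203, 0.147 and 0.207 CPM in DRG neurons against 23.9, 0.468 and 0.217 CPM in OPC. It rests on OPC replicate 1, and without it the log2 fold change was −0.90 (adjusted p = 0.154). It also did not pass without any 1 of the DRG libraries (adjusted p = 0.0528, 0.0582 and 0.0520). OPC replicate 1 also held 65.1 CPM of Neu4, a sialidase gene of the OPC marker list, against 2.79 and 6.16 CPM, beside the Gpr17 values above, and whether these are related was not tested.

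**Figure D5:**
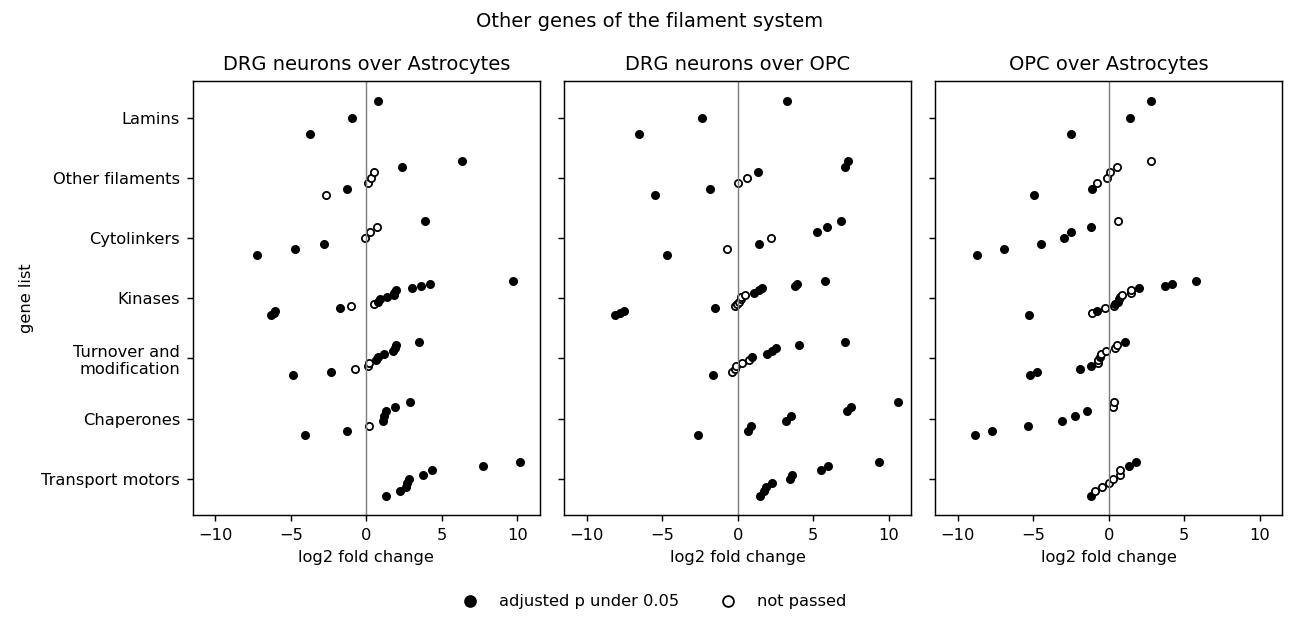
log2 fold change of every tested gene in 7 lists of the filament system, for DRG neurons over astrocytes, DRG neurons over OPC and OPC over astrocytes. Filled points passed an adjusted p of 0.05 and open points did not. All 9 transport motor genes lie right of 0 in both DRG comparisons, and no chaperone gene that passed lies right of 0 in OPC over astrocytes.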

How the data were processed

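Reads from stranded poly(A) libraries (Illumina TruSeq stranded mRNA kit, TRIzol RNA, per the labels' protocols) were aligned to mm10 by TopHat2 and counted by HTSeq (both per the submitters' processing notes). Tool versions, annotation release, strand setting and counting mode are not given in the sources used here. Raw counts per RefSeq accession were deposited by the authors, 1 file per library, with 33787 accessions and 5 closing lines of unassigned reads, which were left out (22.0 to 24.7% of all reads were ambiguous). Accessions were named from RefSeq GRCm38.p6 (33315) and GENCODE (193), 279 stayed unnamed, and counts were summed to 24170 genes.

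The test was edgeR 4.0.16 (R 4.3.3): quasi-likelihood F-test, 1 coefficient per cell type over all 9 libraries (6 residual degrees of freedom), TMM, filterByExpr with minimum count 10, Benjamini-Hochberg over 14848 genes, threshold 0.05. The SE was calculated back from the fold change and its F value and is no SE of the fit. The same test was run on 16010 accessions. CPM per kb divides CPM by the bases in no other accession of the gene, added up over the gene, which gives Gfap too low a value. Nearest genes used log2 CPM with a prior count of 2. The procedure was tested on simulated data. The genes named are all 10 members, the 3 most changed genes of each filament list past the threshold in a DRG comparison, the 1 most changed in OPC against astrocytes, and the 3 nearest genes of each member, some of which are not reported here. Isl1, Scn10a, Gpr17, Neu4, Ptprz1, Olig1 and Slc1a3 were named after their values were seen. The members and lists were chosen with earlier results of these data known. Replicates are biological replicate experiments, per the labels. Assigned counts of 30710093 to 53594210 per library limit the precision of genes with few counts. Alternatives were DESeq2 1.42.0, other scalings, no filter, the compared libraries alone, removal of a length trend, 1 accession per gene, a replicate block, and libraries left out.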

Additional observations from a re-analysis of the deposited data

How the results depend on the processing

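Under the 19 alternatives the count of intermediate filament genes called stayed at 8 in DRG neurons against astrocytes, 8 to 9 in DRG neurons against OPC and 5 to 7 in OPC against astrocytes, where the main counts were 8, 8 and 6. Transcript calls were 9, 8 to 9 and 6 to 8 under 13 alternatives. Leaving out 1 library each gave 7758 to 9439, 7657 to 9451 and 6492 to 8021 genes called, beside 8938, 8833 and 7689. All 8 member calls of DRG neurons against astrocytes and all 8 against OPC held under every alternative run. In OPC against astrocytes, Nefh ran from −1.50 without OPC replicate 2 to 2.29 and changed sign (log2 0.30, adjusted p = 0.821 with the replicate block, 2.29, adjusted p = 0.111 without Astrocytes replicate 2, and 2.29, adjusted p = 0.133 without DRG replicate 1 and Astrocytes replicate 2, an alternative chosen after seeing the data). The Nes call there was lost under 9 of 19 alternatives (adjusted p = 0.00721 to 0.121 over all of them, 0.0798 with the replicate block). With both of those libraries out, Nefl (6.04, adjusted p = 0.00252), Nefm (5.28, adjusted p = 0.00166) and Ina in DRG neurons against OPC (−1.66, adjusted p = 0.0474) passed. The cause of these changes was not tested. Other cytoplasmic filament genes called ranged from 2 to 6 in DRG neurons against astrocytes (main 3) and from 1 to 4 in OPC against astrocytes (main 2), and kinases fell to 6 without Astrocytes replicate 1 (main 10). Correlations of the deviations of same-numbered libraries ran from −0.0357 to 0.128, and those of differently numbered libraries from −0.13 to 0.0777. Such values cannot show whether same-numbered libraries were prepared together. The replicate block gave 8, 8 and 5 member calls. Bfsp2 in DRG neurons against OPC was lost under the replicate block as well (adjusted p = 0.0996). Nefl, Nefm and Nefh had 1 to 7 counts in Astrocytes replicate 1, so their values there are imprecise. That library was the deepest of its group, with 48556154 assigned counts.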
